A study of Rattus norvegicus with 6 samples.

Results

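Skeletal muscle genes were followed in bulk RNA-seq of 6 rat mammary tumors, to see which tumors carried RNA of adjoining skeletal muscle. The set holds 9 of the 30562 rows of the count table, namely Acta1, Tnnc2, Tnni2, Tnnt3, Myh4, Mylpf, Myl1, Atp2a1 and Ckm. They were picked by symbol as genes of skeletal muscle after their counts in these tumors were known, so their levels are given as a description. All 9 were found in the table, with Mylpf listed as Myl11, its current RefSeq symbol.

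The tumors arose in F344 rats, an inbred strain, after a single oral dose of 65 mg per kg DMBA, a chemical carcinogen. All the rats, in both age groups, also carried a 50 mg pellet releasing MPA, a progestin, over 90 days. At dosing the younger rats were about 4 months old and the older rats 21 to 23 months old, and tumors 157, 158 and 167 came from younger rats and tumors 102, 107 and 116 from older rats. Each tumor is 1 library of frozen tissue, so 3 libraries stand for each age. The labels do not say which rat bore which tumor, but the paper counts its sequenced tumors as coming from 3 older and 3 younger rats. A p-value here measures only the spread between these tumors. The table holds no normal mammary gland and no muscle sample to serve as a reference level, and no record of muscle seen in the tissue pieces was used.

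Skeletal muscle shortens when myosin thick filaments slide along actin thin filaments, and calcium released from the sarcoplasmic reticulum starts this by binding the troponin complex on the thin filament. Fast and slow fibers use different genes for nearly every one of these proteins. The rat mammary glands lie under the skin, close to the muscles of the body wall and a thin sheet of skin muscle, while the gland itself holds myoepithelial cells, which contract with smooth muscle proteins.

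No tumor carried the 9 genes as a set. Of the 54 values (9 genes in 6 tumors), 11 were 0, 13 were 1 to 3 counts and 30 were above 3 counts, which was taken as the floor of detection in a library. Only 4 values were above 40 counts, and all 4 were Acta1. Library totals ran from 3394451 to 6383983 counts, so the floor of 3 counts lay between 0.528 CPM in tumor 157 and 1.03 CPM in tumor 102 (CPM, a gene's counts relative to the TMM-scaled library total). Intervals and floors here cover counting error only.

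**Figure D1:**
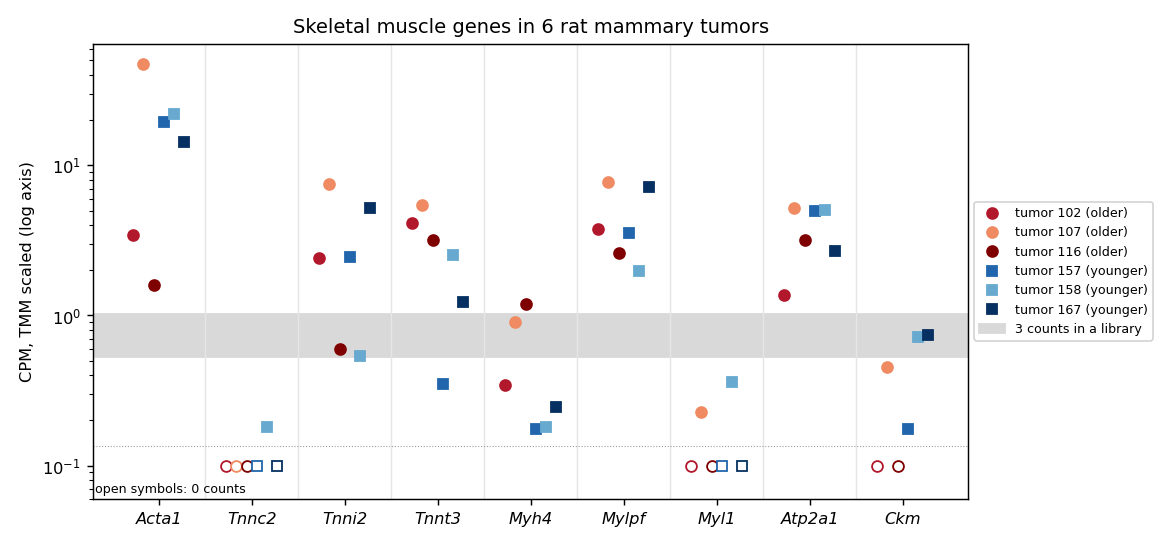
Level of each skeletal muscle gene in each tumor, in CPM on a log axis, with circles for the 3 older and squares for the 3 younger tumors. The gray band spans 3 counts across the 6 libraries, and open symbols at the bottom mark 0 counts. Acta1 reached 47.3 CPM in tumor 107, while Tnnc2, Myl1 and Ckm lay at 0 or within or under the gray band in every tumor.

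Summed over the 9 genes, tumor 107 had 330 counts, or 71.5 CPM of its library before scaling (exact 95% interval 64.0 to 79.7). The other older tumors had far less, with 45 counts or 13.3 CPM unscaled in tumor 102 (9.67 to 17.7) and 62 counts or 13.9 CPM unscaled in tumor 116 (10.7 to 17.9). The younger tumors lay in between, with 176 counts in tumor 157, 186 in tumor 158 and 128 in tumor 167, or 34.3, 29.1 and 35.3 CPM unscaled. The older tumors thus held both the highest and the lowest sums. In bulk tissue, fewer muscle cells and less muscle RNA per cell cannot be told apart.

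Much of this order came from Acta1. It made up 63.3% of the summed counts in tumor 107, 62.5% in tumor 157, 65.6% in tumor 158 and 45.3% in tumor 167, against 22.2% in tumor 102 and 12.9% in tumor 116. Without it, the other 8 genes summed to 35, 121 and 54 counts in tumors 102, 107 and 116, and to 66, 64 and 70 counts in tumors 157, 158 and 167. That is 26.2 CPM unscaled in tumor 107 (21.8 to 31.3) and at most 19.3 CPM unscaled in the other 5. Tumor 107 stayed highest, though its interval now overlapped that of tumor 167 (15.0 to 24.4). In these unscaled values tumors 102 and 116 no longer stood below all the younger tumors. After TMM scaling, tumor 116 was lowest at 10.8 CPM, against 12.0 CPM in tumor 102 and 11.5 to 17.2 CPM in the younger tumors. Gene by gene, the highest of the 6 tumors was tumor 107 for 5 of the 9 genes, tumor 158 for 2, tumor 116 for 1 and tumor 167 for 1. The 5 genes highest in tumor 107 were those that passed the filter on low counts for the age comparison. The others were Myl1 and Tnnc2 (tumor 158), Myh4 (tumor 116) and Ckm (tumor 167). They had at most 6 counts in any tumor, so their order was not read. Over all 13139 genes tested, the highest tumor was tumor 102 for 25.7%, tumor 107 for 13.9%, tumor 116 for 11.2%, tumor 157 for 13.8%, tumor 158 for 16.6% and tumor 167 for 18.7%.

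Among thin filament genes, Acta1 encodes the skeletal muscle alpha-actin. Its counts were 10, 209 and 8 in tumors 102, 107 and 116, and 110, 122 and 58 in tumors 157, 158 and 167. In CPM these are 3.43, 47.3 and 1.60 in older tumors (17.4 ± 25.9, SD, n = 3) and 19.4, 22.0 and 14.3 in younger tumors (18.5 ± 3.93, n = 3). The older tumors lay on both sides of the younger ones, and tumor 107 exceeded tumor 116 by 29.7-fold (counting interval 14.8 to 69.6). The log2 difference between older and younger tumors was -0.08 (SE 1.05), and without tumor 107 it was -2.93.

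The troponin complex was present in part at most. Tnnc2, the fast skeletal troponin C that binds calcium, had 1 count in tumor 158 and 0 in the other 5 tumors. Tnni2, the fast troponin I that holds the complex inhibited, had 7, 33 and 3 counts in older and 14, 3 and 21 in younger tumors. Tumors 107 (7.47 CPM) and 167 (5.16 CPM) were highest, and both age groups reached down to 3 counts. In RefSeq the Tnni2 locus overlaps 5 other gene records, among them Ctsd, the lysosomal protease cathepsin D, and the strand setting of the counting is not given in the sources used here, so reads of overlapping genes could be counted for it.

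Tnnt3, the fast troponin T that ties the complex to tropomyosin, had 12, 24 and 16 counts in older and 2, 14 and 5 counts in younger tumors. In CPM these are 4.11, 5.43 and 3.19 (4.25 ± 1.13, n = 3) against 0.352, 2.52 and 1.23 (1.37 ± 1.09, n = 3), so that every older tumor lay above every younger one. The log2 difference was 1.61 (SE 0.69), from 1.14 to 2.45 with each tumor left out. Nothing is read from this separation, because the genes were chosen with their values known. Among all genes tested, 12.1% had age groups that did not overlap, with all older tumors higher in 6.51% and all lower in 5.58%.

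Myosin genes were sparse. Myh4, the heavy chain of the fastest fibers, had 1, 4 and 6 counts in older tumors and 1 count in each younger tumor. Tumor 102 thus tied with the younger tumors in counts. Its 0.343 CPM lay above their 0.176 to 0.246 CPM, but all these values were under the floor, so no separation by age was read. Myl1, the essential light chain of fast fibers, had 1 count in tumor 107, 2 in tumor 158 and 0 in the other 4. Mylpf, the fast regulatory light chain, was the myosin gene of the set that was above the floor in all 6 tumors.

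Mylpf had 11, 34 and 13 counts in tumors 102, 107 and 116 and 20, 11 and 29 in tumors 157, 158 and 167. In CPM these are 3.77, 7.69 and 2.59 in older (4.69 ± 2.67, n = 3) and 3.52, 1.98 and 7.13 in younger tumors (4.21 ± 2.64, n = 3). Tumors 107 and 167 were highest, as for Tnni2, and the age groups overlapped. The log2 difference was 0.17 (SE 0.64), from -0.40 to 0.76 with each tumor left out.

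The remaining genes serve calcium return and energy supply. Atp2a1, the calcium pump that refills the sarcoplasmic reticulum of fast fibers, had 4, 23 and 16 counts in older and 28, 28 and 11 in younger tumors, or 1.37, 5.21 and 3.19 CPM against 4.93, 5.04 and 2.70 CPM. Tumors 107, 157 and 158 were nearly level, and tumor 102 was lowest. RefSeq lists Rabep2 as overlapping Atp2a1. Ckm, the creatine kinase that restores ATP in working muscle and one of its most abundant transcripts, had 2 counts in tumor 107, 1 in tumor 157, 4 in tumor 158, 3 in tumor 167 and 0 in tumors 102 and 116.

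The promoter windows are shown for Acta1, which had the most counts of the set, for Myh4, which shares a CArG box with it, and for Ckm and Tnnc2, which were at or near the floor. Each is the 250 bases before the RefSeq gene start in GRCr8, whereas the counts were made on mRatBN7.2 per the processing notes. Acta1 lies at chr19:68784195-68784444 on the minus strand, Myh4 at chr10:52421898-52422147 on the plus strand, Ckm at chr1:88189211-88189460 on the plus strand and Tnnc2 at chr3:173935340-173935589 on the minus strand. The sequences run 5′ to 3′, and capitals mark E-boxes (CANNTG, the letters bound by MyoD family factors) and CArG boxes (the site bound by serum response factor).
Acta1: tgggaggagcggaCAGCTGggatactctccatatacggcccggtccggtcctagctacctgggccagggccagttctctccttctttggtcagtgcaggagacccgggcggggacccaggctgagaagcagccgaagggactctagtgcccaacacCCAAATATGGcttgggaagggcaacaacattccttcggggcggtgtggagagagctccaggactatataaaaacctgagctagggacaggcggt
Myh4: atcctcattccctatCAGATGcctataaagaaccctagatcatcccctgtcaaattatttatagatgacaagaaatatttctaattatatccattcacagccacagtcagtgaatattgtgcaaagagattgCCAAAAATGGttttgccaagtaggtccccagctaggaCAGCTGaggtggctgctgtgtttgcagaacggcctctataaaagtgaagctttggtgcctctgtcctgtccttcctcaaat
Ckm: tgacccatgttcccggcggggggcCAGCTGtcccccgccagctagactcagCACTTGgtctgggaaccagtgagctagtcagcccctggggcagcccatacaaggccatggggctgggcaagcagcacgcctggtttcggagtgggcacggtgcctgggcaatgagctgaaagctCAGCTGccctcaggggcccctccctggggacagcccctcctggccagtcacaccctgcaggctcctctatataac
Tnnc2: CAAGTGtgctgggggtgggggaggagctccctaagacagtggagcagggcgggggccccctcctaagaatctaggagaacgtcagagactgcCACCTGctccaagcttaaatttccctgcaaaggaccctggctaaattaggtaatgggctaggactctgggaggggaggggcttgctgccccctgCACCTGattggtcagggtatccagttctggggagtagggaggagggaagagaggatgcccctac

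RefSeq windows were found for 8 of the 9 genes, and Myl1 has 2 of them, which makes 9 windows. Searched on both strands, an E-box stood in 9 of the 9 windows, against 65.5% of all 33469 windows of this length. A CArG box stood in 2 windows, those of Acta1 and Myh4, against 1.5% of all windows, and no E-box overlapped one. Acta1 had 8 to 209 counts across the tumors and Myh4 had 1 to 6. The letters TATAAA were in 4 windows (12.9% of all windows) and a MEF2 site was in 2 (2.96%). A match describes the letters only.

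Compared between ages, neither the 9 genes as a group nor the other muscle genes separated older from younger tumors. The mean log2 CPM of the 9 genes was 0.86 ± 0.71 in older and 0.86 ± 0.17 in younger tumors (n = 3 each), a difference of -0.0025 that ranged from -0.41 without tumor 107 to 0.23 without tumor 116. The edgeR quasi-likelihood test over 13139 genes found 0 genes (0.0%) with an adjusted p under 0.05 and 1129 (8.59%) with an unadjusted p under 0.05, of which 697 were higher (5.3%) and 432 lower (3.29%) in older tumors. DESeq2 called 343 of 15016 genes (2.28%) and limma-voom called 0. Of the 9 genes, 5 passed the filter on low counts (Acta1, Mylpf, Tnnt3, Tnni2 and Atp2a1), and Ckm, Myl1, Tnnc2 and Myh4 did not.

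Other genes of skeletal muscle were looked up in 7 lists of sarcomere, calcium handling, metabolic, slow fiber and embryonic genes as a check for the rest of the muscle program. Of 85 listed genes 80 had a row, and 5 of these had 0 counts in all 6 tumors, 24 had at most 3 counts in every tumor and 38 stayed under 10 counts in every tumor. In the age comparison edgeR and limma-voom tested 27 and DESeq2 tested 45, and 0 passed with adjustment by any of these tools, while 5, 2 and 7 had an unadjusted p under 0.05. By edgeR these were 3 higher in older tumors (Des, Chrne and Jph1) and 2 lower (Pfkm and Casq2), and the median log2 difference was -0.05 against -0.0038 over all genes tested. Of the 27 tested, 3 had age groups that did not overlap, against 12.1% of all genes tested.

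Some of the listed genes with high levels are also used outside skeletal muscle. Tpm1, a tropomyosin shared with smooth muscle and many other cells, had 183 to 536 CPM, and Tpm3 had 145 to 210 CPM. Eno3, the muscle enolase, had 85.3 to 249 CPM, lowest in tumor 102. Ttn, the giant spring protein of striated muscle, had 51.8 CPM in tumor 102 and 5.65 CPM in tumor 167, an order unlike that of any of the 9 genes, and its row had 23 to 151 counts.

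The factors that switch on the skeletal muscle program were not detected. Myod1, Myf5, Myf6 and Myog, the myogenic transcription factors, and Pax7 and Pax3, which mark muscle stem cells, had 0 counts in all 6 tumors, which allows up to 3 counts in each library. Mymk, which fuses myoblasts, had 7 counts in tumor 157, 2 in tumor 158 and 0 elsewhere. Mef2c, which endothelial and immune cells also express, had 72 to 254 counts.

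Tumor 107 stood apart for some further muscle genes, among them Des, Myh2, Tnni1 and Myoz1. Among the 27 other muscle genes tested, 7 were highest in tumor 107, 6 in tumor 102 and 3 to 4 in each of the others. Over all genes tested, tumor 107 was highest for 13.9% and tumor 102 for 25.7%. The 3 Z disc genes tested were split, with Des highest in tumor 107 and Ldb3 and Fhl1 highest in tumor 102. Des, the muscle intermediate filament desmin, had 950 counts in tumor 107 against 56 and 21 in the other older tumors and 69, 37 and 12 in the younger ones. At 215 CPM it was 11.2-fold above the next tumor, tumor 102 at 19.2 CPM. Ranked by this ratio after a small constant was added to both CPM values, Des was 9th among the 13139 genes tested. Its age comparison gave a log2 difference of 3.44 (SE 1.31, adjusted p = 0.507 by edgeR) while the other older tumors, at 19.2 and 4.19 CPM, overlapped the younger tumors at 2.95 to 12.2 CPM. RefSeq lists LOC102550477 as overlapping Des. The summed contractile genes of smooth muscle and myoepithelial cells were also highest in tumor 107, and the part of these cells in the Des level was not tested.

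Myh2, the heavy chain of fast oxidative fibers, had 47 counts in tumor 107 and 1, 0, 2, 2 and 1 in tumors 102, 116, 157, 158 and 167. In CPM its level there was 41.2-fold that of the other 5 tumors pooled (counting interval 17.6 to 118). Tnni1, the slow fiber troponin I, had 38 counts in tumor 107, 1 in tumor 157 and 0 in the other 4. Myoz1, a Z disc protein of fast fibers singled out after its values were seen, had 10 counts in tumor 107 and 1, 1, 1, 1 and 3 in tumors 102, 116, 157, 158 and 167, 7.51-fold the other 5 pooled in CPM (counting interval 2.58 to 23.3). Each of these 3 genes was thus above the floor in 1 tumor of 6.

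The partners of these proteins were found in part in tumor 107. Tnnt3, Tnni2 and Mylpf had 24, 33 and 34 counts there, each the highest of the 6 tumors. Tnnc2, Tnnc1 and Tnnt1, the troponin C genes and the slow troponin T, had 0 counts there, Myl1 had 1, Ckm 2, and Myh7, the slow myosin heavy chain, 2. Of the 53 counts of the skeletal myosin heavy chains Myh2, Myh4, Myh7, Myh3 and Myh8 in tumor 107, 88.7% were Myh2 (exact 95% interval 77.0 to 95.7), 7.55% Myh4 and 3.77% Myh7, and Myh3 and Myh8, the embryonic and perinatal chains, had 0. Of its 71 troponin I counts, 53.5% were the slow Tnni1 (41.3 to 65.5) and 46.5% the fast Tnni2. Counts of different genes are not per length here, so these shares compare tumors rather than molecules. In the other 5 tumors the same chains summed to 3 to 10 counts, too few for shares. No row was matched for Myh1, the fast IIx chain, so it is in none of these shares. Myh2 and Myh4 are closely similar in sequence, as are Acta1 and Acta2, and how reads matching both were counted is not given, so values within these pairs are uncertain.

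**Figure D2:**
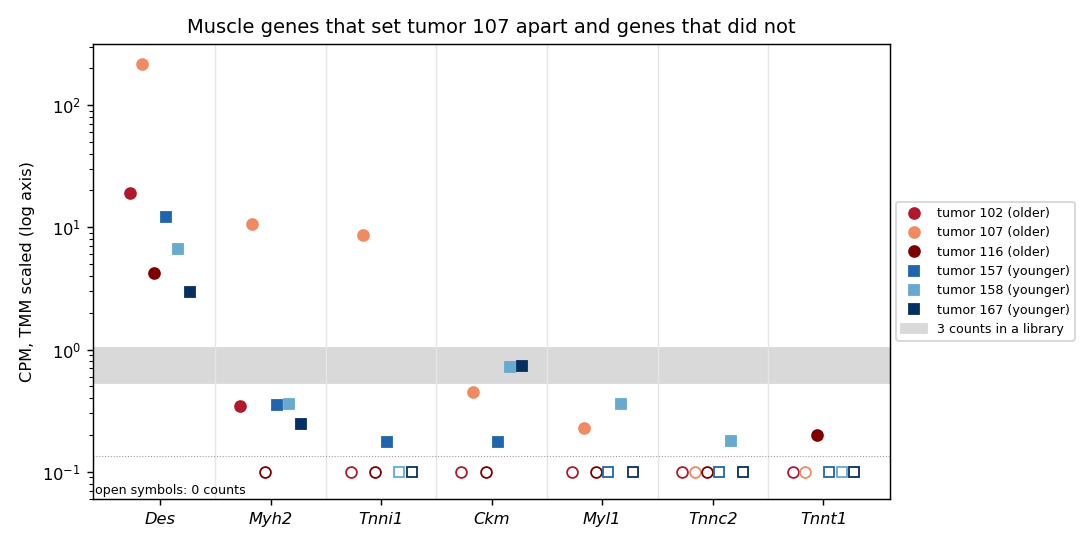
Level in CPM on a log axis of 7 muscle genes in each tumor, with symbols as for the 9 genes and the gray band at 3 counts. Des, Myh2 and Tnni1 were highest in tumor 107 at 215, 10.6 and 8.60 CPM, while Ckm, Myl1, Tnnc2 and Tnnt1 lay at or under 0.737 CPM in every tumor.

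As a sum, contractile genes of smooth muscle and myoepithelial cells put the tumors in a like order to Acta1. The 10 genes of that list summed to 817.5, 3689 and 943.7 CPM in tumors 102, 107 and 116 and to 3027, 2559 and 2626 CPM in tumors 157, 158 and 167. As for Acta1, tumor 107 was highest, tumors 102 and 116 were lowest and the younger tumors lay between. All 10 were tested between ages, 0 passed with adjustment by edgeR, and their median log2 difference was -0.59. Of the 10, 6 were highest in tumor 107, against 13.9% of all genes tested. The rest did not share this order, with 2 highest in tumor 157, 1 in tumor 116 and 1 in tumor 167. The part of these cell types in the Acta1 level was not tested.

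Acta2, the smooth muscle alpha-actin of this list, had 641, 5218 and 1499 counts in older and 6329, 4249 and 3692 counts in younger tumors. Acta1 was a small share of the summed Acta1 and Acta2 counts everywhere. That share was 3.85% in tumor 107 (exact 95% interval 3.35 to 4.40), 2.79% in tumor 158 (2.32 to 3.32), 1.71% in tumor 157, 1.55% in tumor 167, 1.54% in tumor 102 and 0.531% in tumor 116 (0.229 to 1.04). Tumors 102, 157 and 167 thus had nearly equal shares, although their Acta1 counts were 10, 110 and 58. The share of tumor 102 rested on those 10 counts, and its interval was wide (0.739 to 2.81). Actc1, the cardiac alpha-actin, had only 2 to 5 counts.

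**Figure D3:**
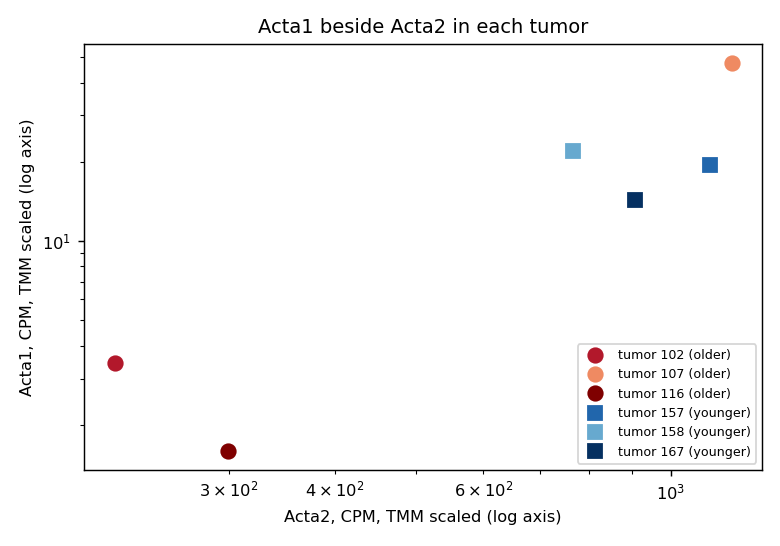
Acta1 against Acta2 in each of the 6 tumors, both in CPM on log axes. Tumors 102 and 116 lie low on both axes, the 3 younger tumors lie together at 14.3 to 22.0 CPM of Acta1, and tumor 107 is highest on both.

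Lmod1, the leiomodin of smooth muscle, was also highest in tumor 107, with 369 counts against 13 and 43 in the other older and 99, 70 and 70 in the younger tumors, 4.79-fold above the next tumor in CPM, against 2.15-fold for Acta1. It was picked out after its values were seen. Myh11, the smooth muscle myosin heavy chain, had 819 CPM in tumor 107, 148 and 106 CPM in tumors 102 and 116, and 445 to 591 CPM in the younger tumors.

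The genes whose pattern was most like that of the 9 genes were ranked by Pearson's r with their mean log2 CPM over the 6 tumors, among 13134 candidates. The first 10 were Slc39a13 (r = 0.994), Jph2 (0.992), Snx14, LOC120095206, Tmem184a, Prune2, Cbr4, Aph1b, Proca1 and Rap1gap2 (0.95). Jph2, which joins calcium stores to the surface membrane in muscle, is the one among them on a muscle list, and it had 10.6 CPM in tumor 107 and 4.39 to 7.37 CPM elsewhere. The 10 smooth muscle and myoepithelial genes ran from rank 26 for Lmod1 (0.918) over 182 for Myh11 (0.801) and 406 for Acta2 (0.719) to 884 for Myl9 (0.604), 1579 for Smtn (0.487) and 3059 for Synm (0.311). With 6 points that share their libraries, these values order genes and test nothing.

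Markers of other tissue that a tumor piece could hold were read beside the muscle genes. Mammary epithelial genes were abundant as a sum in all 6 tumors, but single genes varied. Esr1, at 4.46 to 59.3 CPM, and Krt5, at 42.2 to 734 CPM, were lowest in tumor 102. Elf5, at 40.8 to 699 CPM, was lowest in tumor 167. Epcam had 299 to 496 CPM and Krt8 had 99.8 to 335 CPM, and the 8 matched genes summed to 1810 to 2209 CPM in older and 2350 to 3026 CPM in younger tumors. White adipocyte genes summed to 746, 460 and 286 CPM in tumors 102, 107 and 116 and to 90.7, 239 and 87.0 CPM in tumors 157, 158 and 167. Their summed order, with tumor 102 highest, was not that of Acta1. Lep, also on the list, was highest in tumor 107 at 24.9 CPM, against at most 4.11 CPM elsewhere. Lpl, a lipase that other tissues also make, carried most of the sum, with 517, 406 and 259 CPM in tumors 102, 107 and 116. It lay above the younger tumors in all older ones (log2 difference 1.76, SE 0.53, adjusted p = 0.368 by edgeR), as did 6.51% of all genes tested. Fabp4, the fatty acid carrier of adipocytes, had 134, 2.26 and 7.97 CPM in tumors 102, 107 and 116 and 10.6, 4.86 and 1.47 CPM in tumors 157, 158 and 167, and Adipoq, the adipocyte hormone adiponectin, had 31, 3 and 8 counts in older and 9, 8 and 2 in younger tumors. Of the 5 matched genes of keratinized skin, Krt1, Lor and Krtdap had 0 to 2 counts in every tumor, Sbsn had 5 to 28 and Krt10 had 13 to 107, highest in tumor 107 at 24.2 CPM. Of the 4 tendon genes, Tnmd had 0 to 3 counts, Scx 7 to 22, Mkx 0 to 85 and Fmod 33 to 549, with Mkx and Fmod highest in tumor 158.

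**Figure D4:**
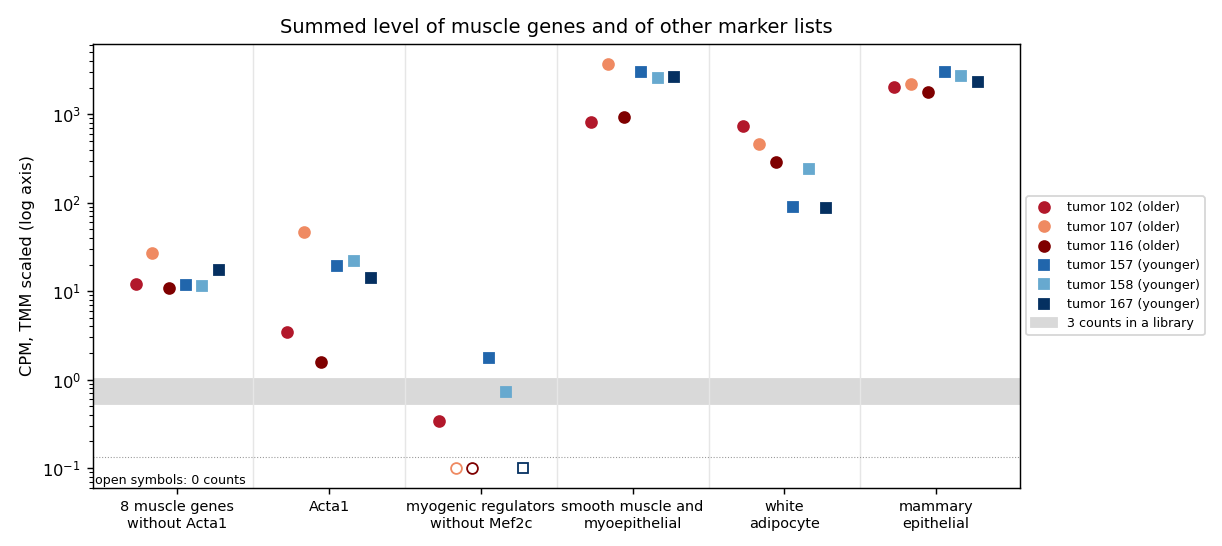
Summed level of the muscle genes and of 4 other marker lists in each tumor, in CPM on a log axis, with symbols as for the 9 genes. The 8 genes without Acta1 stay near 10.8 to 27.4 CPM, the myogenic regulators without Mef2c at or under 1.76 CPM, and the smooth muscle and myoepithelial genes between 817.5 and 3689 CPM with the same 2 low tumors as Acta1.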

How the data were processed

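Bulk RNA-seq of 6 mammary tumors was analysed, 3 from older and 3 from younger rats, grouped by the sample titles. Per the labels and methods, the authors checked reads with FastQC, trimmed them with Trimmomatic, aligned them with STAR, marked duplicates with Picard and counted reads per gene with HTSeq 0.13.5 on mRatBN7.2, and deposited raw counts without normalization. The labels name polyA RNA and reads of 100 bases, whereas the extraction protocol describes ribosomal RNA depletion and reads of 150 bases. The annotation and strand setting are not given in the sources used here. ERCC spike-in RNA was added per the protocol, and the table holds 0 such rows.

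The 4367 rows without a gene name, which took 2.17 to 3.64% of the counts of a tumor, were left out of totals and tests. Of the 26195 named rows, 13139 passed filterByExpr by age group. Libraries were scaled by TMM (factors 0.859 to 1.128), and the age comparison used edgeR's quasi-likelihood test (edgeR 4.0.16, R 4.3.3) without covariates, two-sided, with Benjamini-Hochberg adjustment at 0.05. Fits were tested on simulated data. SEs were derived from each gene's F value and fold change. A prior count of 2 was added for log2 CPM. Intervals are exact binomial 95% intervals. Promoter windows and overlapping genes came from RefSeq GRCr8, from which no coordinates were set beside the counts. DESeq2 1.42.0 and limma-voom (limma 3.58.1), other scalings and filters, and leaving out each tumor were alternatives, and keeping unnamed rows and leaving out Acta1 were chosen after seeing the data.

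The 9 genes and all lists were chosen with earlier results of these data known. Named are the 9 genes, up to 4 of each list with the highest mean CPM, their isoform partners and the 10 genes most like them in pattern. Further genes, such as those at 0 counts and those singled out in tumor 107, were named after their values were seen. Promoters were not used for Tnnt3. DNA sequencing and single-nucleus data of the study were not used here.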

Additional observations from a re-analysis of the deposited data

How the results depend on the processing

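No paired analysis was possible because the older and younger tumors share no replicate number. No other skeletal muscle gene passed the threshold under any scaling, filter, tool or left-out tumor tried, and the counts without each tumor ran from 0 to 0, both for these genes and for all genes tested. Over all genes DESeq2's Wald test called 343 where edgeR called 0; the cause was not tested. The difference between ages in the mean level of the 9 genes ranged from -0.41 to 0.23 with each tumor left out, within the spread of the tumors. The share of tumor 107's counts in the 9 genes moved from 71.5 to 80.6 CPM (unscaled) without the 3 casein genes in the total, and to 26.2 without Acta1, both by construction. The range of a gene's share of the summed counts across tumors had a median over the 9 genes of 14.8 percentage points, and of 16.9 without Acta1. In tumor 107 Myh4 alone made up 7.55% of the myosin heavy chain counts and the matched fast chains summed to 96.2%.

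Single genes moved more: the Acta1 log2 difference was -1.48 by limma-voom and -2.93 without tumor 107, and DESeq2 gave it no p. Tnni2 and Mylpf turned from 0.39 and 0.17 to -0.91 and -0.40 without tumor 107 and to -0.11 and -0.17 without tumor 158. Acta1 turned to 0.38, 0.46 and 0.06 without tumors 102, 116 and 158. At the depth of these libraries, 24 of the 54 values lay at or under 3 counts, where differences between tumors could not be read.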

Other observations

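Casq2 of the slow fiber list and Tnnt2 of the cardiac list stood out in another tumor, tumor 158, and were picked after their values were seen. Casq2, the calcium store protein of heart and slow fibers, had 248 counts in tumor 158 and 0, 4, 14, 19 and 7 in tumors 102, 107, 116, 157 and 167. Tnnt2, the cardiac troponin T, had 138 counts in tumor 158, 20 and 9 in the other younger tumors and 5, 6 and 2 in the older ones (log2 difference -3.18, SE 1.07, adjusted p = 0.433 by edgeR). Myh6, the cardiac alpha myosin heavy chain, did not share this order and had 37 to 143 counts, highest in tumor 157. Nppa and Nppb, the natriuretic peptides of heart muscle, had at most 1 count in any tumor. Of other genes on these lists, Tnni1 and Tnnt1 had 0 counts in tumor 158, and Tnnc1, Myl2 and Myl3 had 1. Myh7 and Tnni3 were highest there at 7 and 16 counts, and Ryr2 was highest in tumor 157.

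Genes of neuromuscular signalling were detected unevenly. Chrng, the fetal acetylcholine receptor subunit, had 171 to 314 counts and 49.1 to 62.6 CPM in every tumor, and Chrnb1 and Chrne, other subunits of the receptor, had 21 to 82 and 10 to 49 counts. Chrnd had 0 counts in all 6, and Chrna1 had 5 counts in tumor 102, 1 in tumor 167 and 0 in the other 4. Genes overlapping these subunits were not looked up. Cacna1s, the voltage sensor of skeletal muscle, had 2, 86 and 29 counts in older and 73, 37 and 100 counts in younger tumors.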
